A study of Rattus norvegicus with 4 samples.

Results

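The genes described here are the voltage-gated sodium and calcium channel subunits, the HCN channels and the TRPC, TRPM and TRPV channels of the rat brain. They were chosen by gene symbol alone, as the rows whose symbol starts with Scn and a digit, Cacna, Cacnb or Cacng, Hcn and a digit, or Trpc, Trpm or Trpv and a digit. The rule found 63 of the 17853 genes in the table. Of these, 62 belong to the named channel families and 1, Trpc4ap, encodes a protein associated with TRPC4 and is no channel. By family there were 8 sodium channel alpha genes, 4 sodium channel beta genes, 10 Cacna1, 4 Cacna2d, 4 Cacnb, 8 Cacng, 4 Hcn, 7 Trpc, 8 Trpm and 5 Trpv genes. Scn2a and Scn3a, which encode other sodium channel alpha subunits of the brain, and Trpv5 were not analysed here.

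Polyadenylated RNA was sequenced from rat brain after intracerebral hemorrhage (bleeding within the brain). The 4 groups, with 1 library each, were the bleeding (ipsilateral) and the opposite (contralateral) side of adult rats aged 13 months and of old rats aged 21 months. All 4 groups came from rats with a hemorrhage, so the contralateral side is the comparison tissue and no group was free of injury. The labels describe RNA of 9 rat brains pooled in equal amounts, without saying how the brains were divided over the libraries, and give neither strain, sex, hemorrhage model nor time after the bleeding. With 1 library per group, single values carry no error, and a difference between pools cannot be told apart from one between sides or ages. The number of reads behind the values is unknown. General markers fixed for neurons, oligodendrocytes and astrocytes were present in every library, with summed levels of 2044 to 2836, 2053 to 2768 and 662 to 782 RPKM (a read count scaled to gene length and to library size).

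Voltage-gated sodium channels consist of a large alpha subunit that forms the pore and smaller beta subunits that modify gating and anchoring. They start and carry the action potential. Voltage-gated calcium channels turn depolarization into calcium entry and so drive transmitter release, dendritic signalling and rhythmic firing; their pore is a Cacna1 subunit, joined in many of them by a Cacna2d and a Cacnb subunit. HCN channels open on hyperpolarization and carry the pacemaker current, and TRP channels are cation channels gated by lipids, calcium, temperature, oxidants or other signals, several of them in glia, endothelium or immune cells rather than in neurons.

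RefSeq promoter windows (GRCr8, 250 bases before to 50 after a transcription start) were found for 45 of the 63 genes. Those of 4 genes on which the results below turn are shown, since they stand for the patterns seen: Trpm2 (chr20:10704222-10704521, plus strand) and Trpv2 (chr10:47771973-47772272, plus strand) were higher on the bleeding side at both ages, Cacna2d1 (chr4:20330098-20330397, minus strand, the first of 3 windows listed) was the lowest of all at 21 months, and Cacng8 (chr1:74690954-74691253, minus strand) differed most between the ages among the genes with a window. Capitals mark the GC box GGGCGG and the ETS core GGAAGT on either strand; neighbouring GC boxes can run together.
Trpm2: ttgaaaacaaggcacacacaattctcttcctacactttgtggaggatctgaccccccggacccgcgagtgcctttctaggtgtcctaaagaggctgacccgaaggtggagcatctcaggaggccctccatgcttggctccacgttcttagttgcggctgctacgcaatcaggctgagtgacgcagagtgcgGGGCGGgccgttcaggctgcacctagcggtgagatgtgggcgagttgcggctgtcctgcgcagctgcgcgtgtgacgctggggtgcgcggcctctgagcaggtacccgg
Trpv2: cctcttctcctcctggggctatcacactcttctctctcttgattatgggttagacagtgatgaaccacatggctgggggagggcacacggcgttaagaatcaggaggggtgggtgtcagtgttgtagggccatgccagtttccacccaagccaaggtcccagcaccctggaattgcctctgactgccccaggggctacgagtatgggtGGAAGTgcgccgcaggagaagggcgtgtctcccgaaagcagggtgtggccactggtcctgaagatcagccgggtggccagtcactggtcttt
Cacna2d1: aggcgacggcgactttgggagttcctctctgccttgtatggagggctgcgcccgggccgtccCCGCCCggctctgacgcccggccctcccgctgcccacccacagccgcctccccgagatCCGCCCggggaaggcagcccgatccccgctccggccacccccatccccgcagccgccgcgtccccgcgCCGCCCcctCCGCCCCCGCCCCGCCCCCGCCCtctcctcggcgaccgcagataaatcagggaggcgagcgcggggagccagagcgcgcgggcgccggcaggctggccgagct
Cacng8: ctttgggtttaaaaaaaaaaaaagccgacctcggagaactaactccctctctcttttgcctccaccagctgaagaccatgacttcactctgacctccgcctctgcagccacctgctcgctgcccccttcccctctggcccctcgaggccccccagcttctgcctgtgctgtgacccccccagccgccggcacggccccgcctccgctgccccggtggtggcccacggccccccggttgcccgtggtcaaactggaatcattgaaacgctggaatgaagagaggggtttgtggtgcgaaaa
The Trpm2 window held 1 GC box and the Cacna2d1 window 7, at GC contents of 61.7% and 78.3%. The Trpv2 window held 1 ETS core and no GC box, and the Cacng8 window held neither motif. Of all 27457 RefSeq windows of this length 34.9% held the GC box and 22.8% the ETS core, against 20 and 6 of the 45 windows of the channel genes. These are matches of letters in a short window and say nothing about the binding of a factor.

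Levels spanned more than the differences between libraries did. Averaged over the libraries, 40 of the 63 genes reached the minimum of 1 RPKM, and 16 of these averaged 10 RPKM or more. Auxiliary subunit genes summed higher than the pore-forming ones, by a margin that differed between families. The sodium channel beta genes summed to 204 and 299 RPKM at 13 months and to 272 and 275 RPKM at 21 months, ipsilateral first here and in all pairs below, whereas the alpha genes summed to 16.5, 19.9, 16.3 and 20.6 RPKM. The ratio of beta to alpha sums was 12.4, 15.1, 16.7 and 13.3 in the same order, with Scn2a and Scn3a not counted among the alpha genes. Over the libraries the Cacnb genes summed to 69.9 to 97.8 RPKM and the Cacna2d genes to 46.7 to 63.2 RPKM. The 10 Cacna1 genes summed to 26.5 to 37.6 RPKM. The Cacng genes, most of which encode auxiliary subunits of AMPA-type glutamate receptors, summed to 96.2 to 131 RPKM. None of the 40 genes passed the minimum through the bleeding side alone, since all 40 also averaged 1 RPKM or more on the contralateral side.

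**Figure D1:**
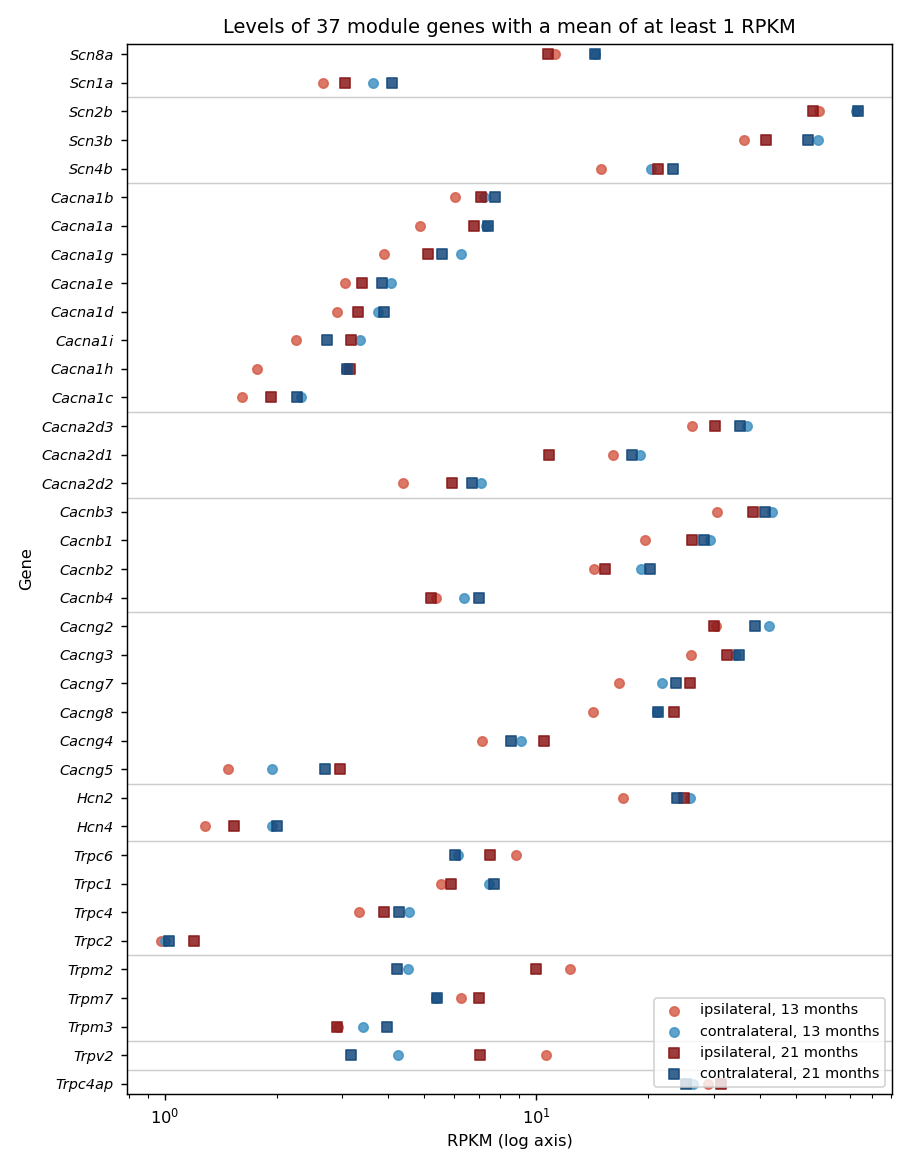
RPKM on a log axis for 37 of the 40 genes averaging 1 RPKM or more, grouped by family and ordered by mean within it; each point is 1 library, circles for 13 months and squares for 21 months, red for ipsilateral and blue for contralateral. The 13 month ipsilateral circle is the lowest point for most Scn, Cacn and Hcn genes, whereas both red points lie to the right for Trpm2 and Trpv2.

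The first comparison, between sides, asked how channel genes differed from the bleeding to the opposite side. At 13 months every sodium, calcium and HCN channel gene above the minimum was lower on the bleeding side, 30 of 30, while TRP channel genes went both ways. At 21 months 22 of the same 30 were lower, and the median of the 30 lay closer to 0. A pair of TRP genes, Trpm2 and Trpv2, was more than 2-fold higher on the bleeding side at 13 months. Differences are given as log2 side ratios, ipsilateral over contralateral, with 1 RPKM added to both values, which understates the change of low genes.

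Of all 12160 genes above the minimum, 48.9% lay below 0 at 13 months and 38.9% at 21 months. Among the 40 genes of the module 35 and 26 did, with median log2 ratios of -0.36 and -0.11 against 0.01 and 0.09 over all genes. With median-ratio scaling the median of the 40 at 21 months was -0.18, against 0.02 over all genes, and scaled without mitochondrial genes it was -0.21, against -0.01. Without the TRP genes and Trpc4ap the medians were -0.39 and -0.12 over 30 genes. The direction at 13 months held for these 30 genes with both other scalings of the libraries. Of all genes 48.0% were then lower with median-ratio scaling and 59.0% when scaled without mitochondrial genes. At 21 months 24 of 30 were lower with either one, against 48.0% and 51.3% of all genes in the same order. A log2 ratio of -0.5 or less was reached by 9 of 40 genes at 13 months (4.09% of all genes) and by 1 of 40 at 21 months (2.94% of all genes). A ratio of 0.5 or more was reached by 2 of 40 at each age (15.2% and 16.3% of all genes), Trpm2 and Trpv2 at both (10.7% of all genes), whereas 0 of 40 were at -0.5 or less at both (0.247% of all genes). Below 0 at both ages were 26 of 40 (26.5% of all genes). Below 0 at 13 months and above 0 at 21 months were 9 of 40 (22.2% of all genes). With either of the other scalings 7 of 40 were, against 2010 of the 12160 genes with median-ratio scaling and 2357 without mitochondrial genes. At 1 or more stood 2 of 40 at 13 months (7.19% of all genes) and 1 of 40 at 21 months (5.61% of all genes), and none of the 40 was at -1 or less at either age (0.0658% and 0.288%).

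Both ipsilateral values lay below both contralateral values for 25 of the 40 genes (22.1% of all genes), and above both for 5 (34.4% of all genes). These 5 were Trpm2, Trpv2, Trpc6, Trpm7 and Trpc4ap. A limma fit of side with age as an additive term served as a secondary summary. Its error for a gene is the age-by-side difference, which limma moderates toward a variance pooled over all genes. In this fit 2 of the 40 genes rose (13.3% of all genes), Trpm2 and Trpv2, and 0 fell (0.814% of all genes). At an unadjusted p under 0.05 in limma 3 of the 40 were higher (18.9% of all genes) and 8 lower (4.47% of all genes). The nearest to a call among the lower genes was Scn3b. Its fitted log2 change was -0.51 ± 0.17 (moderated SE, 2 libraries per side), with an adjusted p of 0.052 in limma. It passed with either of the other scalings (adjusted p = 0.024 with median-ratio scaling and 0.040 when scaled without mitochondrial genes, both in limma).

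**Figure D2:**
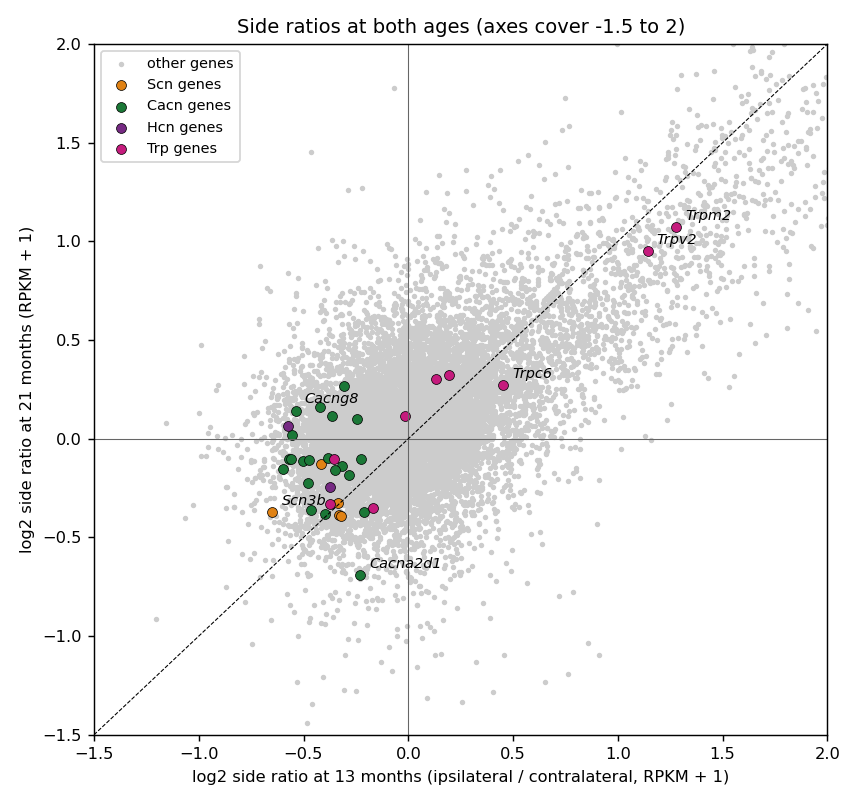
Side ratio (log2, ipsilateral over contralateral, 1 RPKM added to both) with 13 months along the horizontal axis and 21 months along the vertical one; coloured points are 37 of the 40 genes by family, grey points the other genes within the plotted range, and the dashed line marks equal ratios. Sodium, calcium and HCN channel genes lie left of 0 and mostly above the dashed line, and Trpm2 and Trpv2 lie apart at 1.28 and 1.07 and at 1.14 and 0.95.

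General neuron markers were mostly lower on the bleeding side in the same libraries. Of the 15 neuron markers fixed for this tissue 14 passed the minimum. All 14 were lower at 13 months (48.9% of all genes), and 11 were lower (38.9% of all genes) and 3 higher at 21 months. Their median log2 side ratio was -0.44 at 13 months and -0.21 at 21 months. Medians at 21 months were 0.05 for cortical excitatory, -0.24 for interneuron and -0.22 for striatal projection neuron markers. The summed level of the general neuron markers was 2044 and 2836 RPKM at 13 months and 2404 and 2747 RPKM at 21 months. The log2 ratios of the sum were -0.47 and -0.19. Within it Nefm alone had 133 and 310 RPKM at 21 months. Relative to that sum, the summed sodium, calcium and HCN families stood between -0.08 and 0.21 at 13 months and between -0.16 and 0.22 at 21 months on the log2 scale. In tissue RNA, fewer neurons and less channel RNA per neuron cannot be told apart.

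Among sodium channel alpha genes only Scn8a and Scn1a passed the minimum. Scn8a, which encodes the Nav1.6 channel of the axon initial segment and nodes of Ranvier, had 11.2 and 14.3 RPKM at 13 months, then 10.8 and 14.4 RPKM at 21 months. Both ipsilateral values were lower, with log2 ratios of -0.33 and -0.39 that differed little between the ages. Scn1a, which encodes the Nav1.1 channel prominent in fast-spiking interneurons, had ratios of -0.34 and -0.33 from 2.67 and 3.63 RPKM and from 3.06 and 4.09 RPKM. Scn8a supplied 66.0% to 72.2% of the summed RPKM of the 8 alpha genes in each library.

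Among the beta subunit genes, Scn2b, whose product binds alpha subunits through a disulfide bond, had 57.8 and 72.5 RPKM and then 55.6 and 73.3 RPKM, ratios of -0.32 and -0.39. Scn3b had 36.2 and 57.4 RPKM at 13 months, the lowest ratio of all 40 genes at that age (-0.65), and 41.5 and 54.0 RPKM at 21 months (-0.37). For both Scn2b and Scn3b the sides did not overlap. Scn4b, whose product is linked to resurgent sodium current, had ratios of -0.42 and -0.13 from 15.0 and 20.4 RPKM and from 21.2 and 23.3 RPKM.

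All 8 Cacna1 genes above the minimum were lower on the bleeding side at 13 months (48.9% of all genes). Cacna1b, the N-type channel of presynaptic terminals and the highest of them, had 6.04 and 7.24 RPKM at 13 months and 7.11 and 7.72 RPKM at 21 months, ratios of -0.23 and -0.10. Cacna1a, the P/Q-type channel that triggers transmitter release at many central synapses, had 4.86 and 7.31 RPKM and then 6.80 and 7.42 RPKM, ratios of -0.50 and -0.11. In both genes the ipsilateral value at 13 months was the lowest of the 4 libraries.

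T-type genes, which encode low-threshold channels known for burst firing, differed most between the ages. Cacna1g had 3.90 and 6.27 RPKM at 13 months and 5.12 and 5.57 RPKM at 21 months, ratios of -0.57 and -0.10. Cacna1h had ratios of -0.56 and 0.02 from 1.77 and 3.07 RPKM and from 3.15 and 3.09 RPKM, and Cacna1i of -0.42 and 0.16 from 2.25 and 3.35 RPKM and from 3.18 and 2.74 RPKM. Summed, the T-type genes had 7.92 and 12.7 RPKM at 13 months and 11.4 RPKM on both sides at 21 months. Their share of the Cacna1 sum was 29.9% and 33.7% at 13 months and 33.5% and 31.0% at 21 months. The L-type genes Cacna1c and Cacna1d, which couple calcium entry to gene expression and pacemaking, and the R-type gene Cacna1e had ratios of -0.28 to -0.35 at 13 months and of -0.14 to -0.19 at 21 months, with levels from 1.61 to 4.06 RPKM.

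Cacna2d1, which encodes the alpha2/delta subunit that binds gabapentin, showed the opposite order of ages. It had 16.1 and 19.0 RPKM at 13 months and 10.8 and 18.1 RPKM at 21 months. Its ratio of -0.23 at 13 months was among the smaller ones and that of -0.69 at 21 months was the lowest of all 40 genes. Cacna2d2 had 4.37 and 7.12 RPKM and then 5.94 and 6.71 RPKM, ratios of -0.60 and -0.15. Cacna2d3, the highest of its family, had 26.2 and 36.9 RPKM and then 30.2 and 35.4 RPKM, ratios of -0.48 and -0.22. All 3 genes were lower in both ipsilateral libraries than in either contralateral one (22.1% of all genes).

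The Cacnb genes, whose products bind the pore subunit from the cytoplasm and bring it to the membrane, were lower ipsilaterally at both ages. This held for 4 of 4 (26.5% of all genes). Cacnb3 had 30.7 and 43.0 RPKM at 13 months and 38.2 and 41.3 RPKM at 21 months, ratios of -0.47 and -0.11. Cacnb1 behaved alike, with ratios of -0.56 and -0.10. Cacnb2 had 14.3 and 19.1 RPKM and then 15.3 and 20.2 RPKM, and its ratios of -0.40 and -0.38 were nearly equal. Cacnb4 had 5.38 and 6.39 RPKM and then 5.20 and 7.03 RPKM, with a smaller ratio at 13 months (-0.21) than at 21 months (-0.37).

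Most Cacng genes measured here encode proteins known as auxiliary subunits of AMPA-type glutamate receptors rather than of calcium channels. Cacng2, which encodes stargazin, had 30.4 and 42.4 RPKM at 13 months and 30.1 and 38.9 RPKM at 21 months, ratios of -0.46 and -0.36 without overlap of the sides. Cacng8, prominent in hippocampus, had 14.2 and 21.1 RPKM and then 23.5 and 21.2 RPKM, ratios of -0.54 and 0.14. Cacng5 had 1.48 and 1.94 RPKM and then 2.96 and 2.70 RPKM, and was higher at 21 months on both sides. Cacng7 and Cacng4 followed Cacng8, with ratios of -0.37 and 0.12 and of -0.31 and 0.27. Cacng3 had -0.38 and -0.10. At 13 months all 6 were lower on the bleeding side (48.9% of all genes), and at 21 months 2 of 6 were (38.9% of all genes).

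Hcn2, the most abundant HCN gene, had 17.1 and 25.9 RPKM at 13 months and 25.1 and 23.9 RPKM at 21 months, ratios of -0.57 and 0.06, the latter turning to -0.01 and -0.05 with the other scalings. The 13 month ipsilateral library stood alone at the low end. Hcn4, the slow channel known from thalamus and the sinoatrial node, had ratios of -0.37 and -0.24 at 1.28 to 2.01 RPKM. Summed over the family the log2 ratio was -0.54 at 13 months and 0.02 at 21 months, the latter turning to -0.06 and -0.09 with the other scalings.

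**Figure D3:**
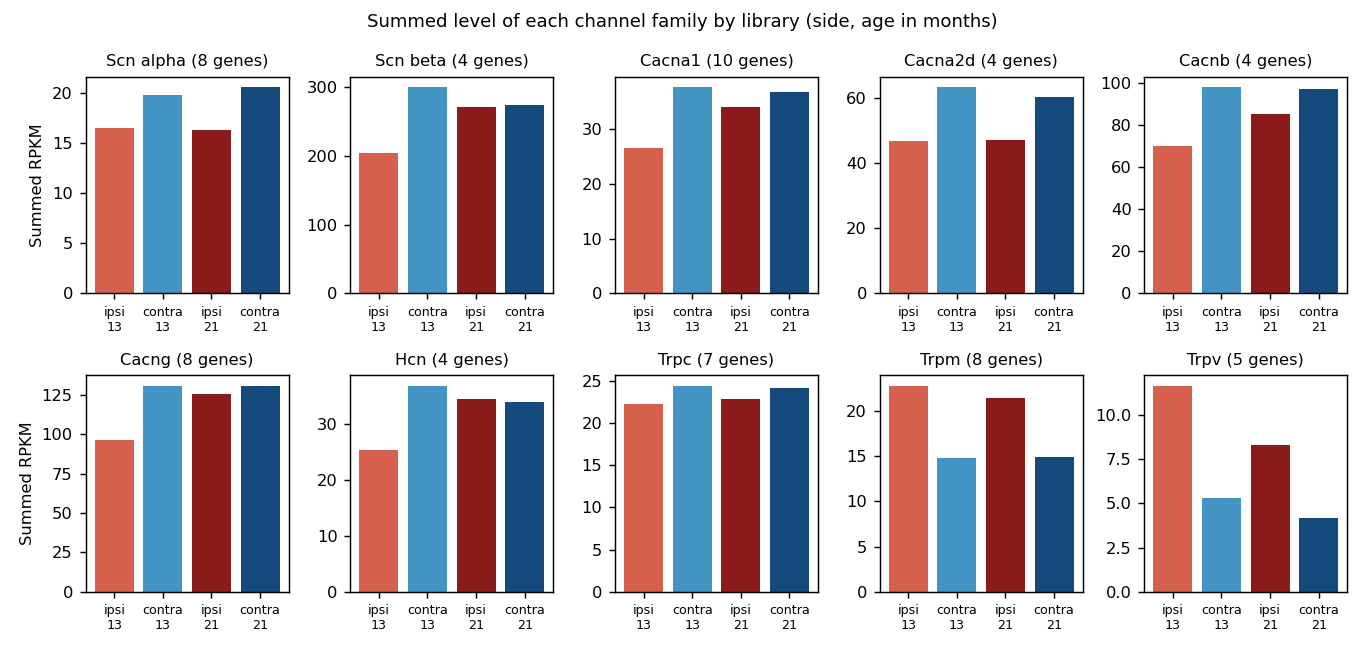
Summed RPKM of all genes of each family in the 4 libraries, each bar 1 library and each panel with its own axis from 0. The ipsilateral bar at 13 months is the lowest or, for Scn alpha, close to the lowest in the Scn, Cacn and Hcn panels, whereas both ipsilateral bars are the highest for Trpm and Trpv.

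TRP genes fell into a group that followed the neuronal channels and a group that did not. Trpc1 and Trpc4, which encode channels of neurons and other cells opened downstream of phospholipase C, had ratios of -0.37 and -0.35 at 13 months and of -0.33 and -0.11 at 21 months. Trpm3, a steroid- and heat-sensitive channel also known from choroid plexus, had 2.92 and 3.41 RPKM at 13 months and 2.90 and 3.97 RPKM at 21 months, ratios of -0.17 and -0.35. Most choroid plexus markers were lower in the same libraries, 7 of 9 at 13 months and 8 of 9 at 21 months. Their median ratios were -0.47 and -0.60. Higher were Aqp1 (0.21) and Slc4a5 (0.13) at 13 months and Folr1 (0.32) at 21 months. The part of choroid plexus in the Trpm3 values was not tested.

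Trpm2 encodes a calcium-permeable channel that ADP-ribose and oxidative stress open and that is known from microglia, macrophages and neutrophils as well as neurons. Its level was 12.4 RPKM ipsilaterally and 4.51 RPKM contralaterally at 13 months, then 9.96 and 4.21 RPKM at 21 months. Both ipsilateral values were more than 2-fold above either contralateral one. The log2 ratios were 1.28 and 1.07. Over both ages the log2 level of Trpm2 rose by 1.18 ± 0.17 (SE moderated over all genes, 2 libraries per side, adjusted p = 2.01e-05 in limma). Trpm2 made up 54.3% of the summed Trpm level on the bleeding side against 30.5% on the opposite side at 13 months, and 46.5% against 28.4% at 21 months. Without Trpm2 the family sum hardly differed between the sides, at 10.4 and 10.3 RPKM and then 11.4 and 10.6 RPKM.

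Trpv2, a channel of macrophages and of some neurons that takes part in phagocytosis, had 10.6 and 4.25 RPKM at 13 months and 7.07 and 3.17 RPKM at 21 months. The sides did not overlap, and both values at 21 months lay below those of the same side at 13 months. The log2 ratios were 1.14 and 0.95, and the gene rose by 1.05 ± 0.17 (moderated SE, 2 libraries per side, adjusted p = 8.33e-05 in limma). With no minimum on low values limma called none of the 17853 genes, and the adjusted p of Trpm2 and Trpv2 was then 0.10 and 0.11. At an unadjusted p under 0.05, 4 of the 63 channel genes were then higher (14.8% of all genes) and 9 lower (4.03% of all genes). In the other alternatives run, both stayed past the threshold.

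Markers of microglia and of monocytes and macrophages were higher on the bleeding side in the same libraries. Of 8 microglia markers above the minimum 7 rose in limma and of 9 monocyte and macrophage markers 8 did (13.3% of all genes). The summed microglia markers had 307 and 102 RPKM at 13 months and 273 and 92.3 RPKM at 21 months, log2 ratios of 1.59 and 1.57. For the monocyte and macrophage markers the sums were 2157 and 116 RPKM, and then 1261 and 63.2 RPKM, ratios of 4.21 and 4.32. No marker on either list was at 0 in every library, and Ccr2 was at 0 in the 21 month contralateral one. The part of these cells in the Trpm2 and Trpv2 values was not tested.

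Trpc6, a channel opened by diacylglycerol, had 8.81 and 6.17 RPKM at 13 months and 7.52 and 6.06 RPKM at 21 months. Both ipsilateral values were above both contralateral ones, but the ratios of 0.45 and 0.27 did not pass (adjusted p = 0.20 in limma). Trpm7, an ion channel fused to a protein kinase and present in most cell types, had 6.29 and 5.37 RPKM and then 7.02 and 5.41 RPKM, ratios of 0.19 and 0.32. Trpc4ap, the gene that is no channel, had 29.0 and 26.4 RPKM and then 31.5 and 25.4 RPKM, ratios of 0.13 and 0.30. For Trpc2, at 0.98 to 1.20 RPKM, the ratios were -0.01 and 0.12.

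A mean under 1 RPKM was found for 23 genes, with values from 0 to 1.05 RPKM, and 16 of these were at or under 0.5 RPKM in every library. They included sodium channel genes known from skeletal muscle and sensory neurons (Scn4a, Scn9a, Scn10a, Scn11a) and Scn7a, the skeletal muscle genes Cacna1s and Cacng1, Cacng6, the retinal genes Cacna1f and Cacna2d4, Hcn3, Trpc5 and Trpc7, Trpm1, Trpm4, Trpm5, Trpm6 and Trpm8, and Trpv1, Trpv3, Trpv4 and Trpv6. Scn7a, which encodes a sodium-sensing channel of glia, was picked out after its values were seen. It had 1.05 and 0.29 RPKM at 13 months and 0.90 and 0.43 RPKM at 21 months, both ipsilateral values above both contralateral ones. Trpm4, also picked out afterwards, encodes a calcium-activated monovalent cation channel studied in brain swelling. It had 0.66 and 0.76 RPKM and then 0.93 and 0.74 RPKM, with no common direction.

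Cacna1f and Cacna2d4, which serve photoreceptor synapses, had their highest value in the 13 month contralateral library, 0.16 and 0.08 RPKM against at most 0.03 and 0.04 RPKM elsewhere. That library also held the most summed RNA of pineal and photoreceptor markers. Their sum over 10 genes was 31.05 RPKM there, against 1.29 to 2.43 RPKM in the others. Crx was at 0 in both ipsilateral libraries. Aanat and Pde6b went the other way, with their lowest values in the 13 month contralateral library, at 0.01 and 0.03 RPKM. The part of such tissue in the 2 low channel values was not tested, and values this low lie close to the rounding step of 0.01 RPKM.

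Partner genes of the channels were read from lists chosen by function. Of all genes 13.3% rose and 0.814% fell in limma, and 48.9% and 38.9% were lower at 13 and 21 months. Of 13 sodium channel partners none passed limma; all 13 were lower on the bleeding side at 13 months and 8 at 21 months, with medians of -0.30 and -0.11. By the mean of both ratios the lowest were Sptbn4, the spectrin of the axon initial segment (-0.46 and -0.33), and Fgf13, an intracellular modulator of sodium channels (-0.64 and -0.11). Of 13 calcium channel partners 2 rose and 0 fell, with medians of -0.25 and -0.10. Those that rose were Thbs1, a secreted matrix protein and alpha2/delta ligand (2.34 and 2.15), and the scaffold gene Ahnak (1.01 and 0.36). Rims1, which ties calcium channels to the release site, had -0.52 and -0.42, and Rem2, a small GTPase that inhibits them, -0.74 and -0.11.

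Of 4 HCN partners 1 rose in limma (13.3% of all genes), Flna, an actin crosslinker widely expressed outside neurons (1.69 and 1.24). Pex5l, which encodes the auxiliary subunit TRIP8b, had -0.49 and -0.43. Among 8 genes of store-operated and intracellular calcium release 1 rose (13.3% of all genes), Orai1, the pore of the store-operated channel (0.48 and 0.74). The release channel genes Itpr1 and Ryr3 had -0.41 and -0.33 and -0.31 and -0.38. Of 15 calcium and sodium export genes 1 rose (13.3% of all genes), Slc8b1, the mitochondrial sodium-calcium exchanger (1.14 and 1.08). The plasma membrane calcium pump genes Atp2b1 and Atp2b3 had -0.33 and -0.60 and -0.48 and -0.43.

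Of 9 other cation channels measured outside the module 3 rose in limma (13.3% of all genes). They were Hvcn1, the proton channel of phagocytes (2.12 and 1.34), the mechanosensitive channel Piezo1 (1.55 and 1.15) and the endolysosomal channel Tpcn2. None of the 9 fell (0.814% of all genes). By the mean of both ratios Asic4 and the sodium leak channel Nalcn stood lowest, at -0.75 and 0.21 and at -0.38 and -0.06. Of 6 Cacng relatives and AMPA receptor auxiliaries 1 rose (13.3% of all genes), Tmem37 (1.11 and 1.36). Of the TRP channels outside the module only Pkd2 and Mcoln1 passed the minimum, with ratios between -0.34 and 0.10, and neither passed limma.

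The second comparison, between ages within a side, asked how channel genes differed from adult to old brain. On the contralateral side no gene of the module was far from equal. The log2 ratio of 21 to 13 months ran from -0.33 for Trpv2 to 0.33 for Cacng5, with 20 of 40 above 0 (40.8% of all genes) and a median of -0.01 against -0.03 over all genes, and 0 of 40 were past 0.5 in either direction (0.905% of all genes higher, 0.666% lower). On the bleeding side 31 of 40 were higher at 21 months (53.9% of all genes), with a median of 0.17 against 0.03. A ratio of 0.5 or more was reached by 6 of 40 (6.53% of all genes), among them Cacng8 at 0.69, Cacng5 at 0.68, Cacng7, Cacna1h and Hcn2, and one of -0.5 or less by 2 of 40 (5.94% of all genes), Cacna2d1 at -0.54 and Trpv2 at -0.52.

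The difference of the side ratios, 21 months minus 13 months, was above 0 for 32 of 40 genes (55.7% of all genes), with a median of 0.19 against 0.05 over all genes. It was 0.5 or more for 6 of 40 (9.79% of all genes), among them Cacng8 at 0.68 and Hcn2 at 0.64, and -0.5 or less for none (6.92% of all genes). With median-ratio scaling the median was 0.12, against -0.03 over all genes, and Cacna2d1 reached -0.55. Cacna2d1 had the lowest difference, -0.46, followed by Trpm2 at -0.20 and Trpv2 at -0.19. With 1 library per group this difference has no test. The neuron markers had a median difference of 0.20 and the oligodendrocyte markers one of 0.52, and the part of either in the channel values was not tested.

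**Figure D4:**
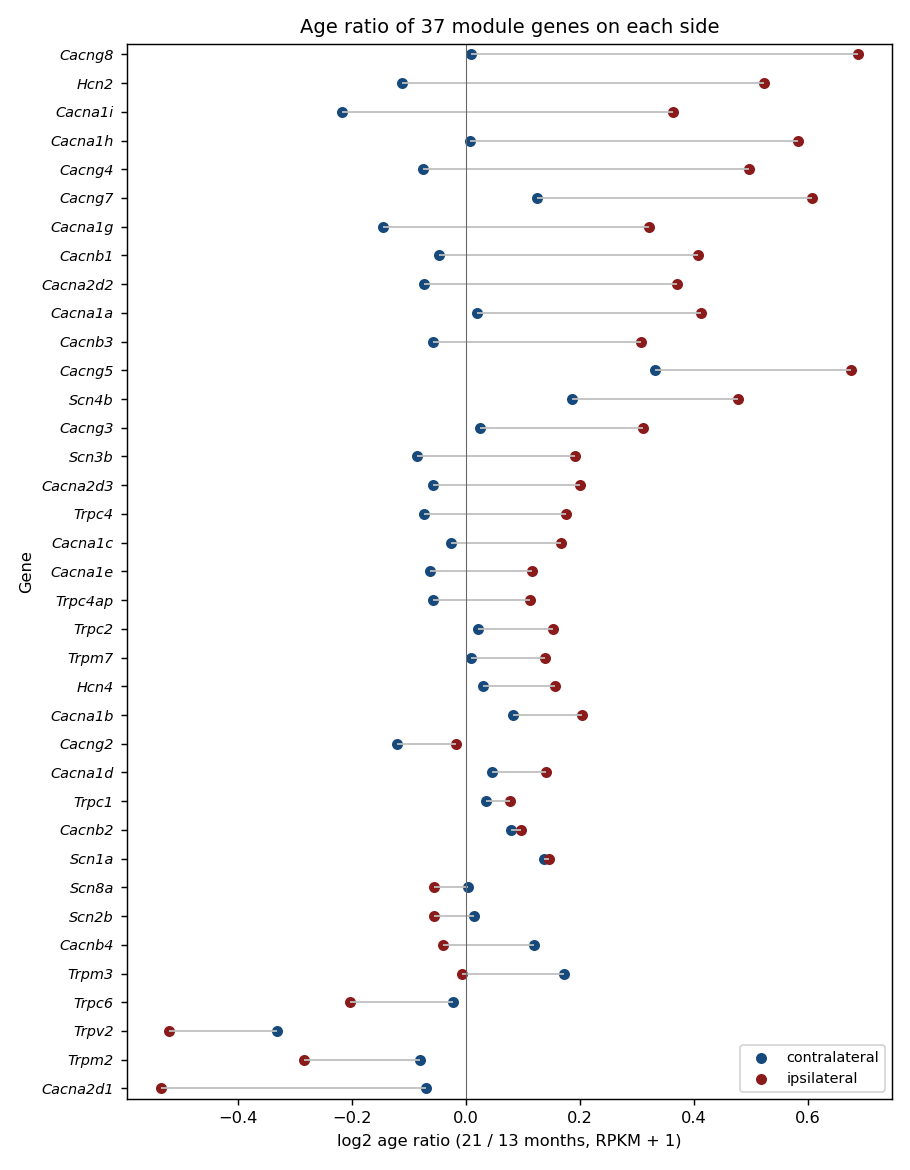
Log2 ratio of 21 to 13 month RPKM, after adding 1 RPKM, for 37 of the 40 genes on the contralateral and on the bleeding side. All contralateral points lie between -0.33 and 0.33, and ipsilateral points reach 0.69 for Cacng8 and -0.54 for Cacna2d1.

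The difference between the ages was also read against gene length. Over all genes with a RefSeq span (GRCr8), split into 5 equal groups by span, the median difference was 0.14, 0.08, 0.03, -0.01 and 0.03 from the shortest group to the longest. None of the 40 channel genes was in the shortest group, and the medians of the 6, 5, 9 and 20 in the following groups were 0.33, 0.45, 0.17 and 0.13. Cacna2d1, with a difference of -0.46, spans 428 kb. Of the longer channel genes Cacna2d3 (814 kb), Cacna1c (621 kb) and Cacna1e (489 kb) had differences of 0.26, 0.19 and 0.18, and Trpm3 (884 kb) one of -0.18. Spearman's rho of span and difference was -0.35 over the 40 genes and -0.12 over all genes, given as a description, since genes of the same libraries are not independent. The part of length in these values was not tested.

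The pattern of the module was set beside those of 2 other groups of membrane proteins measured in the same libraries. Of 62 potassium channel subunit genes above the minimum 56 were lower on the bleeding side at 13 months (48.9% of all genes). At 21 months 42 were (38.9% of all genes), and the medians were -0.38 and -0.12. All 38 glutamate, GABA and glycine receptor subunit genes were lower at 13 months and 26 at 21 months, with medians of -0.38 and -0.10. The medians of the 30 sodium, calcium and HCN channel genes, -0.39 and -0.12, were close to both. In limma 3 of the 62 potassium channel genes and 0 of the 38 receptor genes rose (13.3% of all genes). In the same order 0 and 1 fell (0.814% of all genes).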

How the data were processed

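Polyadenylated RNA of 4 pooled rat brain libraries was measured. The authors deposited a table of RPKM values per gene with 2 decimals; edgeR, TopHat2 and cutadapt are named, per the submitters' processing notes, with GRCh38, a human build, although the table holds rat gene identifiers, so the build used is not settled. The counting step is not given in the sources used here, and read counts could not be recovered from the values. Genes averaging 1 RPKM or more (12160 of 17853) were compared as log2 ratios after adding 1 RPKM, without a test, and counted past 0.5 and 1. Side and age entered limma 3.58.1 (R 4.3.3) additively, on log2(RPKM + 1), with 1 residual degree of freedom. Its p-values were adjusted by Benjamini-Hochberg over all genes tested, with a threshold of 0.05. The fit was also run on simulated data with the same noise level for all genes and no age-by-side difference. That run cannot show how the fit does on real pools. The limma p-values set the side change against the age-by-side difference, moderated toward a variance pooled over all genes. Technical spread, differences between pools and a true age-by-side difference cannot be told apart in it.

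Values in every library were given for the highest gene of each family, genes past 0.5 at both ages, those called by limma, the 5 highest and 5 lowest side ratios at each age, the 3 highest and 3 lowest age ratios and differences, and some further genes; of partner lists, the 2 highest and 2 lowest, with a few exceptions in short lists. Single values of 4 of the channel genes are not reported here; counts, medians and family sums include them. Members and lists were chosen with earlier results of these data known. Alternatives were a pseudocount of 0.1, no minimum, a minimum of 5 RPKM, median-ratio scaling, scaling without mitochondrial genes and an intensity trend in limma. Promoters and spans came from RefSeq GRCr8.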

Additional observations from a re-analysis of the deposited data

Results flagged for a closer look

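The side ratio of 5 of the 40 genes (12.5%, against 14.7% of all genes) lay at least 0.1 below 0 at 13 months and at least 0.1 above 0 at 21 months. Of these, 4 are given here. With 1 library per group the difference between the ages was not tested. Cacng8 differed by 0.68 (-0.54 and 0.14) and Cacna1i, a T-type calcium channel gene, by 0.58 (-0.42 and 0.16). Cacng4 and Cacng7 differed by 0.57 (-0.31 and 0.27) and by 0.48 (-0.37 and 0.12). With either of the other scalings 2 of the 5 genes remained past 0.1 on both sides of 0, Cacng4 among them. The ratios of Cacng8, Cacna1i and Cacng7 at 21 months were then 0.064, 0.0996 and 0.038 with median-ratio scaling and 0.033, 0.076 and 0.0062 when scaled without mitochondrial genes.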

How the results depend on the processing

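Of 67 summary values under the alternatives 59 kept their direction and moved by less than 0.1 (medians) or stayed within 1.5 times (counts). With no minimum on low values the median side ratio at 13 months was -0.25 over 63 genes, and limma called 0 genes as risen. Scaled without mitochondrial genes, the median at 21 months was -0.21 and 2 genes were at -0.5 or less. The median contralateral age ratio turned from -0.01 to 0.014 with median-ratio scaling and to 0.013 without mitochondrial genes. With each of these scalings 1 of the 40 genes fell in limma, Scn3b (187 and 120 of all 12160 genes, against 99). The genes lower at an unadjusted p under 0.05 were 13 and 18 with the scalings, against 8 (792 and 1202 of all genes, against 544). The cause was not tested. The scalings moved the median of all genes at 21 months from 0.09 to 0.02 and -0.01. Of 609 values of single named genes under the alternatives 4 changed sign, all of them near 0 (Hcn2 at 21 months with both scalings, the Cacnb2 difference and the ipsilateral Trpm3 age ratio with 1 each).

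Animals could not be paired, because each group is 1 pooled library and the labels do not say which brains entered it. The limma fit itself compares the sides within each age. Leaving out a library was likewise not possible for the ratios. The read depth is unknown, so no counting error can be given, and genes under 1 RPKM entered limma only where no minimum was set.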
